A study of Mus musculus with 12 samples.

Results

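Digestive enzymes and other genes of the exocrine pancreas were measured in colon RNA of mice with colitis. The set holds 35 genes chosen by symbol for their known role in pancreatic acinar cells: amylases, lipases with their cofactors, trypsins, chymotrypsins and elastases, carboxypeptidases, other acinar proteins and 2 acinar transcription factors. Of these, 33 were matched among the 21899 genes of the table, and Amy2b and Ctrc were not analysed here. Libraries came from whole colon tissue of 12 mice, 6 with Pck1 deleted in the intestinal epithelial cells (labelled CKO) and 6 littermate controls (labelled WT). Every mouse, controls included, had been given 2.5% dextran sulfate sodium (DSS), which injures the colon lining, for 7 days. The labels give neither age, strain nor the driver of the deletion, and no mice without DSS were used here.

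Acinar cells of the pancreas make digestive enzymes, most of them as inactive zymogens, pack them into zymogen granules and release them into the duct that leads to the small intestine. Their genes share control by PTF1, a complex of the basic helix-loop-helix factor Ptf1a, an E-protein partner and the acinar protein Rbpjl, which binds an E-box next to a TC-box. These enzymes are among the most abundant messages of the pancreas and serve as markers of the acinar cell.

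Promoters are shown for 5 members, because the members that moved in proportion from library to library can be set beside those that did not. Each is the run of 250 bases before the gene start in RefSeq's annotation of GRCm38.p6, 5′ to 3′ on the strand of the gene. Capitals mark CACCTG, the E-box letters of PTF1, and TTTCCC, a TC-box core, or their reverse complements CAGGTG and GGGAAA. Cela2a and Prss2 moved in proportion to the rest, Cela1 in the same order but less steeply, and Sycn least. Amy2a2 stands for 3 amylase copies with identical promoters.
Cela2a, chr4:141826006-141826255, minus strand: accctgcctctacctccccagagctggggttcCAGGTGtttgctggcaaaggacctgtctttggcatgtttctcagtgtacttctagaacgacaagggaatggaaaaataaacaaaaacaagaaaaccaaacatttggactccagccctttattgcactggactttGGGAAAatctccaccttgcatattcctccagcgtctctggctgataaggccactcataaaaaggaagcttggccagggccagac
Prss2, chr6:41521526-41521775, plus strand: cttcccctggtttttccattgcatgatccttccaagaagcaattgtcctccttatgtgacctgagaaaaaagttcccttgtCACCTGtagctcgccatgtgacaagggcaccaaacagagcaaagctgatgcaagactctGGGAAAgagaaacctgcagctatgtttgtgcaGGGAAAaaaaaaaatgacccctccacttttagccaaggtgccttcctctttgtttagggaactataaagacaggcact
Cela1, chr15:100687921-100688170, minus strand: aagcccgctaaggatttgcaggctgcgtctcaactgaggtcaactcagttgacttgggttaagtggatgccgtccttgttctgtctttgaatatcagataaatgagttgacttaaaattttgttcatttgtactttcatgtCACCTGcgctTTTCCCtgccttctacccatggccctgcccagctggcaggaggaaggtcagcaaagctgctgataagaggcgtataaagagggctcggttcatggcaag
Sycn, chr7:28540635-28540884, plus strand: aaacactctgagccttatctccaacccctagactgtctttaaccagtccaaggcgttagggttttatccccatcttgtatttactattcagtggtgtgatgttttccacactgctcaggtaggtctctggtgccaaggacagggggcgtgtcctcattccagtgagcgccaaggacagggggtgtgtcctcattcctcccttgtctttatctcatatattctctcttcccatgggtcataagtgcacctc
Amy2a2, chr3:113356659-113356908, minus strand: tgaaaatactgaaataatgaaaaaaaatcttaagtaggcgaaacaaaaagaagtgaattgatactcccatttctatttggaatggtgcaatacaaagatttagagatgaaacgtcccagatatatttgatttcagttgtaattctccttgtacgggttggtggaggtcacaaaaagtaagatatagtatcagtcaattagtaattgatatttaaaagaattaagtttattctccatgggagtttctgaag
Cela2a, Prss2 and Cela1 held both motifs in these runs, and neither set of letters was found in those of Sycn and Amy2a2. In Cela1 the E-box began 109 bases and the TC-box 99 bases before the start. In Cela2a they began 218 and 84 bases before it. In Prss2 the E-box began 169 bases and the TC-boxes 110 and 78 bases before it. Only in Cela1 did the E-box and TC-box letters lie close together. Over the 31 members with a RefSeq promoter of 300 bases (250 before to 50 after the start), CACCTG was found on either strand in 15, or 48.4%, against 20.2% of all 32851 promoters. TTTCCC was found in 11, or 35.5%, against 25.2% of all promoters. Both were found in 7 of the 31, or 22.6%, against 4.86% of all promoters. These matches are a description of letters, and the members were chosen for being acinar genes.

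The libraries held between 15348192 and 19138507 counts. Pck1, the deleted gene, ranged from 2.28 to 7.32 CPM in the knockouts and from 34.5 to 84.7 CPM in the controls, where CPM is the depth-scaled count after TMM normalisation. Genes that mark colon epithelium were present in every library: the summed level of 12 of them (Car1, Cdx2, Muc2 and others) was 7639 to 13605 CPM in the knockouts and 8996 to 13519 CPM in the controls. Control 6 stood apart from all others in the exocrine genes, and results that rest on it are given with and without it. The labels do not say whether the numbered mice were sampled or prepared on different days.

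All 12 libraries held reads of exocrine pancreas genes, and their amount differed 1225-fold in percent of counts between the highest and the lowest library. Control 6 gave 7.54% of all its counts to the 33 genes, with a 95% Wilson interval of 7.53% to 7.55% for counting error only. The next library, control 4, gave 0.999%, and the lowest, knockout 6, gave 0.00616% (95% Wilson interval 0.00578% to 0.00656%). The knockouts had a median of 0.275%, with 0.582% as the highest, and the controls a median of 0.329% and a lowest value of 0.0142%. Controls 4 and 6 lay above every knockout, and the other libraries of the genotypes overlapped. In CPM the summed level was 2768 ± 2425 in the knockouts and 15760 ± 30582 in the controls (SD, n = 6 each), so the SD exceeded the mean in the controls. In bulk tissue, fewer cells of a type and less RNA per cell cannot be told apart.

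Libraries fell into a gradient. Without Cela1 and Sycn, which are described below, the other 31 members gave 204 counts in control 1, 219 in knockout 6, 737 in knockout 2 and 2460 in control 2. The other 8 libraries held between 23422 counts (control 5) and 1380150 counts (control 6). Each genotype thus had 2 of its 6 libraries at the low end. Between 0 and 10 of the 33 genes had no count in a library, and a count of 0 allows a level of up to 0.157 to 0.195 CPM (3 counts).

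**Figure D1:**
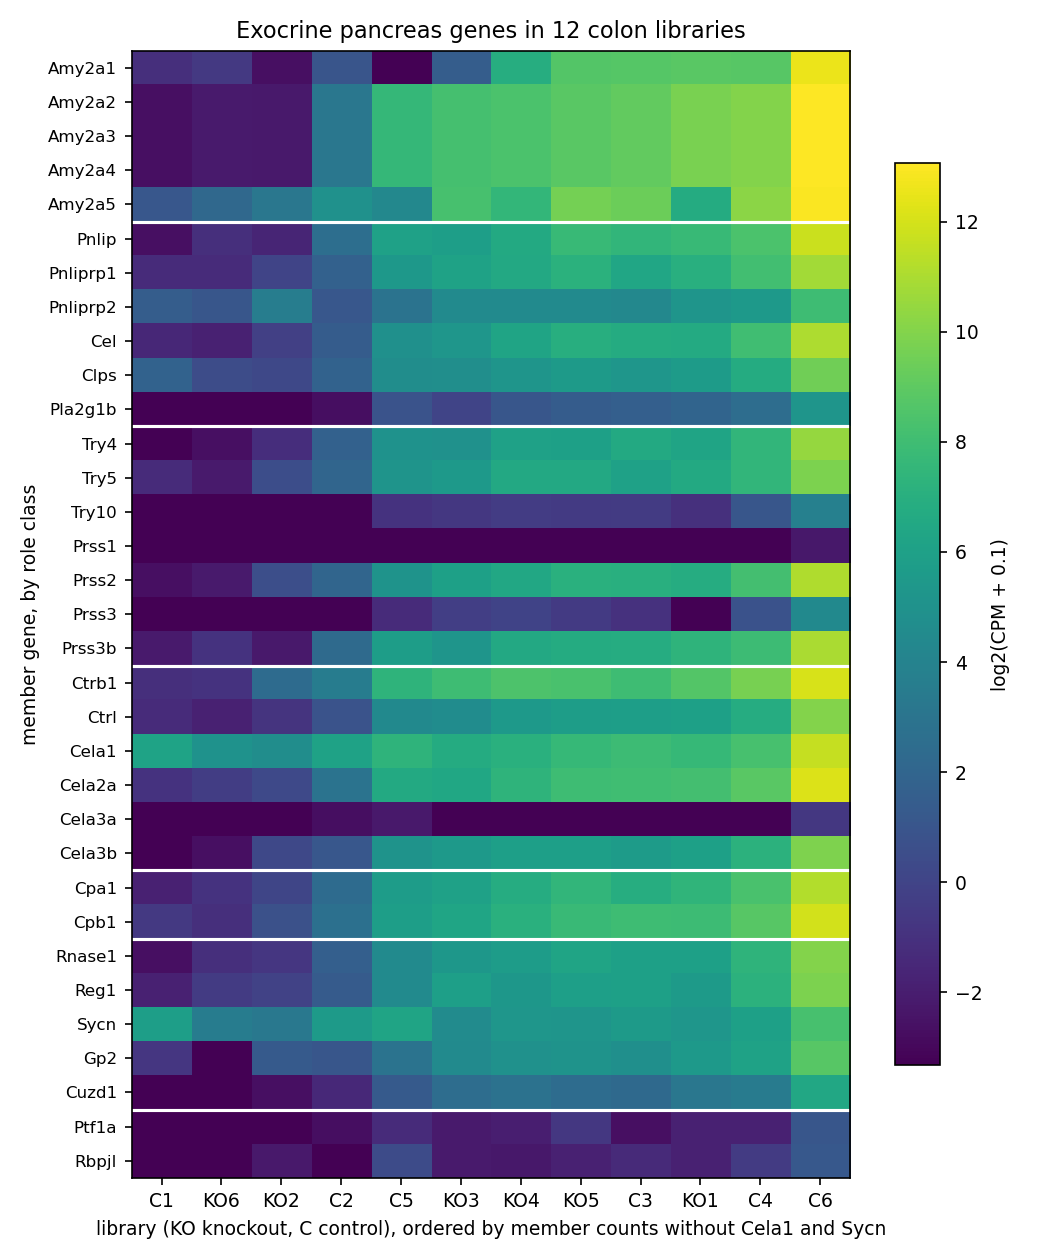
Level of the 33 measured members (rows, grouped by role class, white lines between classes) in each of the 12 libraries (columns, KO knockout and C control), as log2(CPM + 0.1). Columns are ordered by the counts of members other than Cela1 and Sycn, from 204 in control 1 to 1380150 in control 6; most rows brighten from left to right, while the rows of Cela1 and Sycn stay bright in the 4 libraries at the left.

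Pancreatic amylases, which cut starch, made up 21.1% to 35.7% of the summed TPM of the members in 7 of the 8 richer libraries. TPM is the authors' length-normalised level. In control 5, the other of the 8, the amylase share was 13.6%. In the 4 poor libraries the share was 0.578% to 7.52%. Amy2a2 ranged from 0.114 to 878 CPM in the knockouts, with a median of 323 CPM, and from 0.0616 to 8527 CPM in the controls, with a median of 371 CPM. The genotypes overlapped, with controls 4 and 6 above every knockout.

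The rows of Amy2a2, Amy2a3 and Amy2a4 held the same count in every library. Their GENCODE vM21 transcripts on GRCm38 are identical, and so are their 300-base promoters, so the files cannot tell the 3 copies apart. Whether the authors' counter shared reads among them or counted them 3 times is not given in the sources used here. With the identical rows taken once, the members' share of counts in control 6 was 5.99% in place of 7.54%, and 0.407% in place of 0.582% in knockout 1. Amy2a1 has a short annotated transcript of 890 bases, and 94.9% of its 50-base windows also lie in Amy2a2, so its high TPM and its reads are both uncertain.

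Copies of the amylase gene did not keep 1 proportion. Amy2a1 ranged from 0.0571 to 470 CPM in the knockouts, with a median of 60.1 CPM, and from 0 to 6151 CPM in the controls, with a median of 218 CPM. It had 0 counts in control 5 and 41 in knockout 3, where Amy2a2 had 3204 and 4608. In the 6 libraries with at least 100 counts of both, the ratio of Amy2a1 to Amy2a2 counts lay between 0.344 and 0.892. Compared position by position, the promoters of Amy2a5 and Amy2a2 differ at 210 of 300 positions, a count that makes no allowance for shifted starts. Its bearing on levels was not tested. Amy2a5 had at least 100 counts beside Amy2a2 in 9 libraries, among them control 5 and knockout 3, where Amy2a1 had too few. The spreads of the Amy2a1 and Amy2a5 ratios are therefore over different libraries and are not compared. Its ratio to Amy2a2 was 0.102 in control 5 and 0.123 in knockout 1, but 1.75 in knockout 5 and 3.49 in control 2.

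Amy2a5 was also the amylase with most counts in the poorest libraries. It had 155 counts against 2 of Amy2a2 in knockout 2, 74 against 2 in knockout 6 and 34 against 1 in control 1. In the whole genotype range Amy2a5 lay between 4.56 and 806 CPM in the knockouts, with a median of 145 CPM, and between 2.09 and 7977 CPM in the controls, with a median of 348 CPM. Of the 50-base windows of Amy2a5, 57.1% also lie in Amy2a2. How reads were divided between these copies in each mouse was not tested.

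**Figure D2:**
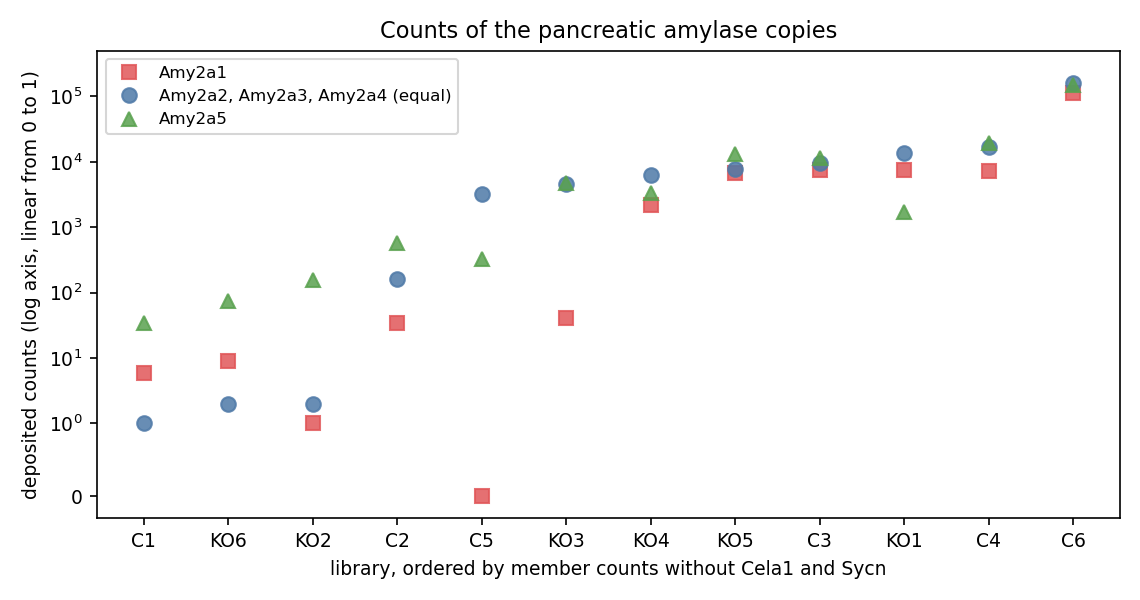
Deposited counts of Amy2a1 (squares), of the equal rows Amy2a2, Amy2a3 and Amy2a4 (circles) and of Amy2a5 (triangles) in each library, on a log axis that is linear between 0 and 1. Libraries are ordered as in the plot of all members; Amy2a1 has 0 counts in control 5, and Amy2a5 lies above the other copies in the 4 libraries at the left.

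Lipases and their cofactors made up 4.25% to 14.9% of member TPM, a narrower range than that of the amylases. The class did not move as 1 in the poor libraries. In knockout 2, at 14.9%, Pnliprp2 held 10.7% and Pnlip 0.213%. In control 1, at 4.25%, Clps held 3.09% and Pnlip 0.0228%. Pnlip, the pancreatic triglyceride lipase, ranged from 0.228 to 212 CPM in the knockouts, with a median of 78.3 CPM. In the controls Pnlip ranged from 0.0616 to 3420 CPM, with a median of 122 CPM. Clps, the colipase that anchors Pnlip at fat droplets in the presence of bile salts, had a median of 32.3 CPM in the knockouts (1.08 to 51.1 CPM) and of 32.4 CPM in the controls (3.45 to 736 CPM). For both genes controls 4 and 6 lay above every knockout, and the other libraries overlapped. Pnliprp1, Pnliprp2 and Cel, the bile salt-dependent lipase, had medians over all libraries of 76.8, 21.2 and 57.4 CPM, and Pla2g1b, a secreted phospholipase, had 1.86 CPM.

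Trypsins, the proteases that activate the other zymogens, made up 12.2% to 16.3% of member TPM in the 8 richer libraries and 0.284% to 6.73% in the 4 poor ones. Prss2 ranged from 0.123 to 133 CPM in the knockouts, with a median of 76.2 CPM, and from 0.0616 to 2245 CPM in the controls, with a median of 80.3 CPM. Try4 had a median of 46.9 CPM in the knockouts (0.0617 to 76.8 CPM) and of 66.6 CPM in the controls (0 to 1390 CPM). Other copies had few counts: Prss1 had 2 counts in control 6 and none elsewhere, and Prss3 and Try10 peaked at 396 and 260 counts in control 6.

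Among the trypsins, Try5 and Try4 stood in different proportion in the genotypes. Over the 8 libraries with at least 100 counts of both, Try5 had 1.28 to 1.48 counts per count of Try4 in 4 knockouts and 0.647 to 1.09 in 4 controls. These ranges did not overlap. The ratio was picked after its values were seen from 8 ratios computed, so it is given without a test, and 45.9% of the 50-base windows of each transcript also lie in the other.

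Chymotrypsins and elastases were the largest class by TPM in 6 of the 12 libraries and held 27.9% to 51.6% of member TPM. Amylases, with the equal rows counted 3 times, were largest in 4. With those rows taken once, the amylases were no longer largest by TPM in any of these 4. Their mean share was then 14.4% in the knockouts and 14.3% in the controls, against 40.8% and 36.6% for the chymotrypsins and elastases. By counts, amylases were largest in 8 libraries and chymotrypsins and elastases in 4, again with the equal rows counted 3 times. With those rows once, the chymotrypsins and elastases had more counts than the amylases in knockout 4 and control 5 as well. In the poor libraries Cela1 carried most of the class, with 49.3% of member TPM in knockout 6 and 34.6% in knockout 2. Ctrb1, chymotrypsinogen B, ranged from 0.432 to 404 CPM in the knockouts, with a median of 286 CPM, and from 0.370 to 4224 CPM in the controls, with a median of 207 CPM. Cela2a, an elastase, had a median of 123 CPM in the knockouts (0.678 to 284 CPM) and of 181 CPM in the controls (0.431 to 4757 CPM). Per length, the mean TPM over all libraries was 1170 for Ctrb1, 894 for Cela2a, 638 for Cela1, 240 for Ctrl and 231 for Cela3b. Cela3a had 10 counts in control 6, 2 in control 5 and 1 in control 2, and none in the other 9 libraries.

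Carboxypeptidases, which trim residues from the end of peptides, held 4.56% to 6.09% of member TPM in the richer libraries and 0.176% to 2.37% in the poor ones. Cpa1 had a median of 91.3 CPM in the knockouts (0.432 to 178 CPM) and of 85.9 CPM in the controls (0.185 to 2344 CPM). Cpb1 had a median of 106 CPM in the knockouts (0.370 to 238 CPM) and of 157 CPM in the controls (0.554 to 3906 CPM). Neither gene separated the genotypes. Rnase1, the pancreatic ribonuclease, ranged from 0.370 to 76.5 CPM in the knockouts and from 0.0616 to 1040 CPM in the controls, with medians of 46.1 and 43.5 CPM. Reg1, a secreted protein of the regenerating family, ranged from 0.617 to 59.8 CPM in the knockouts and from 0.185 to 914 CPM in the controls, with medians of 44.2 and 42.5 CPM.

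The 2 transcription factors were near the limit of detection. Ptf1a had 37 counts in control 6 and 0 to 9 in the other 11 libraries, and Rbpjl had 41 counts in control 6, 20 in control 5 and 0 to 10 in the others. In CPM the medians of Ptf1a were 0.147 in the knockouts (0 to 0.543) and 0.121 in the controls (0 to 1.99). Those of Rbpjl were 0.123 (0 to 0.190) and 0.450 (0 to 2.21). Most of these values lie at or under the level that a count of 0 allows, so no pattern among the poorer libraries was detectable at this depth.

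**Figure D3:**
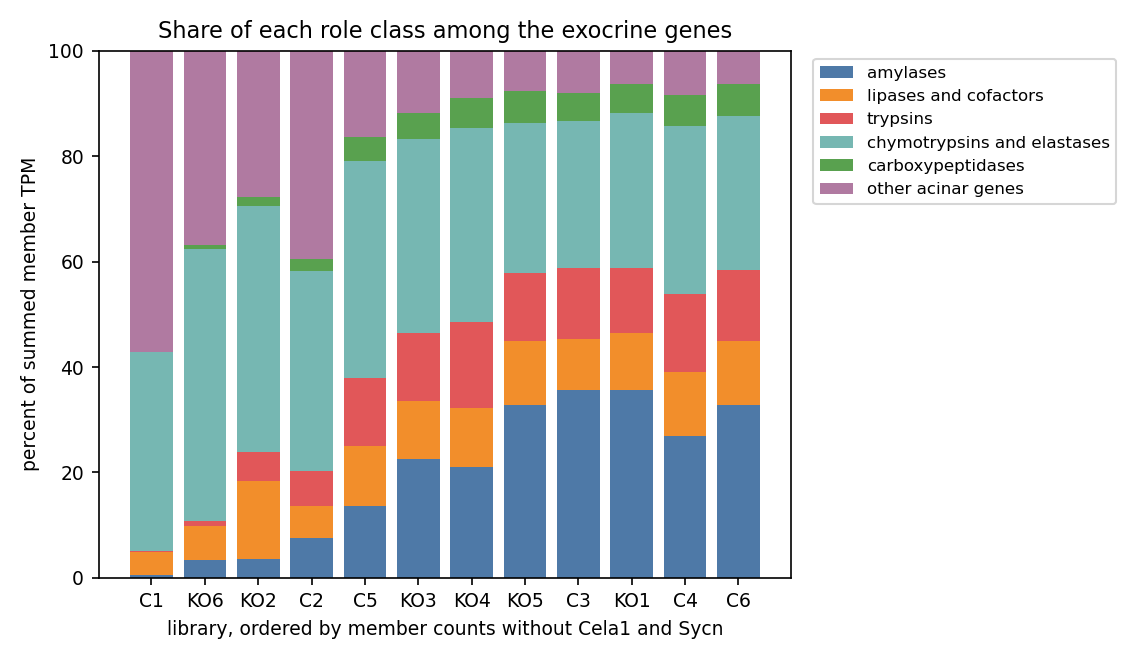
Percent of the summed TPM of the members held by 6 role classes in each library (stacked bars; the transcription factors, under 0.1% in each library, are left out). Amylases, trypsins and carboxypeptidases widen from left to right, and the other acinar genes, which include Sycn, hold 57.1% in control 1 and 6.30% in control 6.

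Several enzymes kept a near fixed proportion across libraries. Ratios of counts to those of Cela2a were taken only where both genes had at least 100 counts and are compared between libraries, not between genes. The ratio of Pnlip to Cela2a lay between 0.616 and 0.861 over 9 libraries, a range of 1.40-fold, while Cela2a itself went from 136 to 88331 counts. That of Ctrl lay between 0.215 and 0.295 (1.37-fold) and that of Prss3b, a trypsin, between 0.418 and 0.586 (1.40-fold), both over 8 libraries. Chymotrypsin varied more, with Ctrb1 at 0.888 per count of Cela2a in control 6 and 2.91 in knockout 3.

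Knockout 3 had the highest ratio to Cela2a for 14 of the 23 members with a ratio in at least 8 libraries, or 12 of 21 with the equal amylase rows taken once. All these ratios share Cela2a as the denominator, so a low Cela2a in that library would raise them together. Reg1 stood at 0.702 there and at 0.171 to 0.316 in the other 7 libraries. Cela3b stood at 0.531 against 0.192 to 0.374, and Prss2 at 0.745 against 0.342 to 0.605. This library also had the highest levels of Reg3b and Reg3g, antimicrobial lectins of the same regenerating family that the inflamed gut makes: 9546 CPM of Reg3b against 547 to 6880 CPM elsewhere. Their part in the ratio of Reg1 was not tested. Reg2, which is not among the 35, kept to Reg1 at 1.42 to 2.75 counts per count over 8 libraries.

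Most members followed 1 common level. For each of the 27 members with enough counts to be tested, log2 CPM was regressed on the median log2 CPM of the other members over the 12 libraries, where a slope of 1 means moving in proportion. The median slope was 1.01, and 22 of the 27 had a slope of at least 0.75. All 33 measured members had their highest level in control 6. By the rule set for a departing member (a different highest library, or a ratio of highest to median library under 1/5 of that of the other members' sum), 0 members departed. Sycn came nearest, with a ratio of 7.12 against a limit of 5.59.

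By slope, a measure adopted after the values were seen, 3 members lay under 0.5. Sycn, a protein of the zymogen granule membrane, had a slope of 0.21, Cela1, pancreatic elastase 1, had 0.40, and Pnliprp2, a lipase-related galactolipase, had 0.45. Without control 6 the slopes were 0.13, 0.30 and 0.39. Spearman rho with the median of the other members over the 12 libraries was 0.378 for Sycn, 0.923 for Cela1 and 0.895 for Pnliprp2. Cela1 and Pnliprp2 thus ranked the libraries much as the rest did, and Sycn did so less. Clps, at 0.66, and Pla2g1b, at 0.67, were the other 2 under 0.75, and Pla2g1b had 0 counts in 3 of the poor libraries. Gp2, a granule membrane protein that M cells of the gut also make, followed with a slope of 0.80 and had 0 counts in knockout 6.

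Sycn varied far less than the enzymes from library to library, from 9.48 to 76.3 CPM outside control 6. Control 1, with 7 counts of Cela2a, had 935 counts of Sycn, and control 3, with 4541 counts of Cela2a, had 832. Knockout 6 and knockout 2, with 11 and 20 counts of Cela2a, had 192 and 166 counts of Sycn, and the other 4 knockouts had 361 to 726. The lowest Sycn level was 3.05% of the highest, against 0.00907% for Cela2a. Cela1 had 1175 counts in control 1, 1229 in control 2, 534 in knockout 6 and 449 in knockout 2. In the other knockouts it had 1605 to 3406 counts, and in controls 3 and 4 it had 4196 and 5144. Its lowest level was 0.826% of its highest. Together Sycn and Cela1 made up 91.2% of member counts in control 1 and 76.8% in knockout 6, against 3.90% to 14.2% in the 8 richer libraries.

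Pnliprp2 and Clps kept smaller remnants. Pnliprp2 had 213 counts in knockout 2, where Pnlip had 4, and 45 in control 1, where Pnlip had 1. Pnliprp2 was lowest in knockout 6, at 32 counts or 1.97 CPM, and its median was 22.7 CPM in the knockouts and 13.6 CPM in the controls. Clps had 56 counts in control 1, 62 in control 2, 21 in knockout 6 and 19 in knockout 2. In control 1 these 2 genes and Amy2a5 were the only other members above 10 counts.

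**Figure D4:**
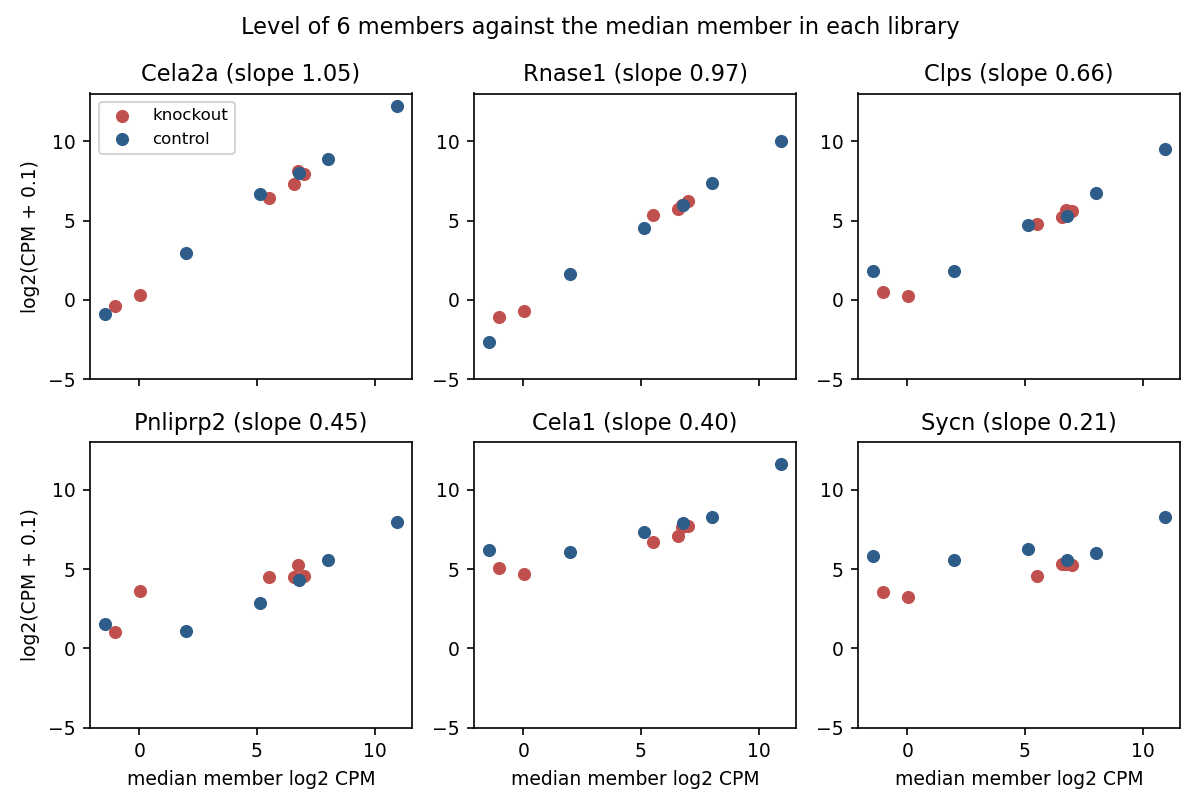
Level of 6 members, log2(CPM + 0.1), against the median log2 CPM of the members tested in the same library; each point is 1 of 12 libraries, red knockout and blue control, and the slope against the median of the other members is in each title. Cela2a and Rnase1 rise along the whole range, while Cela1 (slope 0.40) and Sycn (slope 0.21) climb less steeply, with the blue points of Sycn above the red ones.

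Over genotypes, no member passed the test across all 14393 genes (edgeR's quasi-likelihood test, Benjamini-Hochberg adjusted p under 0.05): 0 of 27 were called, against 8 genes or 0.0556% of all tested in either direction and 0.0278% lower in the knockouts. The log2 fold changes, knockout minus control, were below 0 for all 27, from -2.89 (Cel) to -1.44 (Pnliprp2) with a median of -2.45, against a median of -0.03 over all genes tested. None passed once adjusted over all genes: SEs ran from 0.53 to 2.08, and adjusted p from 0.0694 to 0.472. Of the 27 members, 2 had an unadjusted p under 0.05 in edgeR, Sycn and Cela1, both lower in the knockouts. Of all genes tested, 9.48% had one and were lower, and 22.6% had one in either direction. Without control 6 the median was -0.31, with 24 members below 0 and Pnliprp2, Cuzd1 and Gp2 above.

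Sycn was the member with the smallest adjusted p in the edgeR test. It ranged from 9.48 to 39.6 CPM in the knockouts, with a median of 30.7 CPM, and from 47.7 to 311 CPM in the controls, with a median of 60.7 CPM. All 6 knockouts lay below all 6 controls, which held for 1 of the 27 members and for 0.639% of all genes tested. The log2 fold change was -1.90 ± 0.53 (SE, 6 mice per group; edgeR adjusted p = 0.0694) and -1.12 without control 6 (adjusted p = 0.0784). It passed with DESeq2's test (adjusted p = 0.0166), which called 10.6% of all genes, and with edgeR without knockout 4 (adjusted p = 0.0487), which called 8.8%. In the authors' deposited table, whose test is not named, Sycn was the 1 member of 33 with an adjusted p under 0.05, at 0.0210 and a log2 fold change of -1.84; 6.35% of all genes in that table had one.

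Cela1 ranged from 25.6 to 205 CPM in the knockouts, with a median of 121 CPM, and from 68.3 to 3103 CPM in the controls, with a median of 200 CPM. Its groups overlapped, and the log2 fold change was -2.49 ± 0.95 (SE, 6 mice per group; edgeR adjusted p = 0.141) and -0.55 without control 6. In the authors' deposited table the p-value and adjusted p-value of Cela1 are both 1, as are those of Cela2a, Amy2a1 and Prss3. Such a value can stand for a missing one, so it is not read as a result. DESeq2's test gave no adjusted p-value for Cela1, Cela2a and Amy2a1. Cela2a had -2.85 ± 1.64 in the same edgeR fit (adjusted p = 0.329) and -0.36 without control 6.

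**Figure D5:**
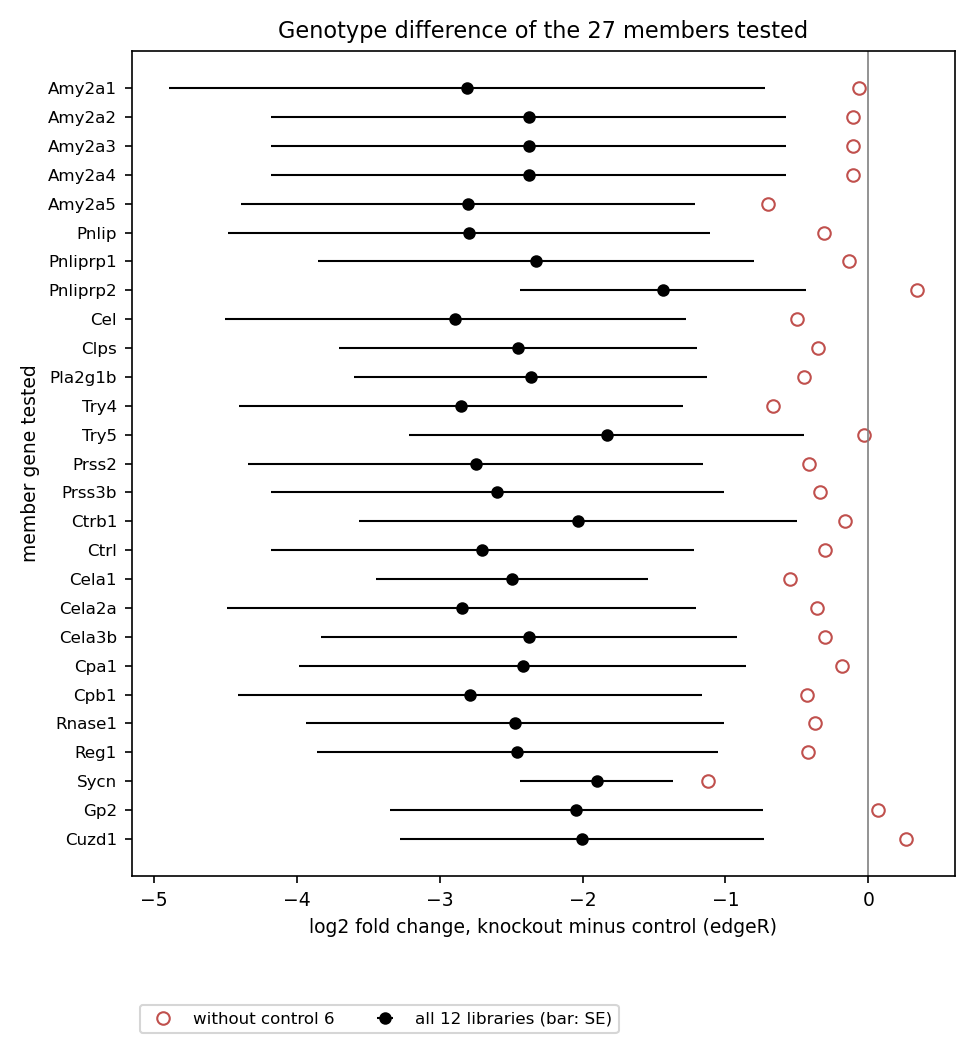
Log2 fold change, knockout minus control, of the 27 members tested, from edgeR over all 12 libraries (filled points, bars SE) and without control 6 (open points). All filled points lie between -2.89 and -1.44; without control 6 all but Sycn, at -1.12, lie between -0.70 and 0.34.

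Other genes of the acinar cell were looked up from a list of 19, of which 17 were in the table and tested: 0 were called in either direction by edgeR, and 7 had an unadjusted p under 0.05, all lower in the knockouts, as had 9.48% of all genes tested. DESeq2's test called 3 of the 17 lower, against 2.98% of all genes: Klk1, Bhlha15 and Slc39a5; Bhlha15, a factor of secretory cells, lay between 5.87 and 23.3 CPM. They divided by pattern. Pdia2, a pancreatic protein disulfide isomerase, went from 0 to 80.3 CPM with its highest level in control 6, and Serpini2 from 0 to 52.3 CPM. Klk1, Zg16, Spink1, Nr5a2 and Slc39a5 were instead found in every library, poor ones included, such as 1303 to 3098 CPM for Zg16, a goblet cell lectin, and 363 to 1215 CPM for Klk1, a kallikrein. Among 13885 genes outside the set with a mean of at least 1 CPM, those with the highest Spearman rho to the summed members over 12 libraries included Pdia2 (0.974), Klk1b5 (0.953), Serpini2 (0.951), Erp27 (0.944), Tff2 (0.923), Fign (0.916), Tmed6 (0.888), Gls2 (0.881) and Gm14440 (0.860). Of these, Pdia2, Serpini2, Erp27, Tff2 and Tmed6 are on the acinar list.

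Markers of neighbouring tissues were read in the same libraries. Ins2, the insulin of islet beta cells, had 3.18 CPM in control 6, 2.68 in control 5, 2.37 in knockout 3, 0.217 to 0.745 in knockout 4 and controls 3 and 4, and 0 in the other 6 libraries, among them knockout 1 with 5814 CPM of the summed members. Ins1, the other insulin gene, was above 0 only in knockout 3 and controls 3 to 6, at 0.115 to 0.725 CPM. Iapp was highest in control 6, control 5 and knockout 3, at 0.808, 0.791 and 0.461 CPM, and had 0.127 CPM in knockout 1. Pdx1 was found in every library, at 0.243 to 0.863 CPM. Mafa lay between 0 and 0.527 CPM, and Nkx6-1 and Ucn3 reached at most 0.111 CPM. The beta cell genes G6pc2 and Slc30a8 had 0 counts in all 12 libraries. Gcg, Sst and Ppy, from the same islet list, were instead found in every library, poor ones included. They lay at 44.8 to 127, 10.7 to 38.7 and 0.457 to 7.81 CPM. Of the 3 islet genes tested, edgeR called 0. DESeq2's test called 1, Sst, higher in the knockouts, against 10.6% of all genes in either direction. Stomach and salivary gland markers summed to 0.0614 to 1.05 CPM, with 4 of 11 genes at 0 throughout, while knockouts ranged from 0.316 to 1.05 CPM and controls from 0.0614 to 0.801 CPM. The 6 liver markers summed to 78.4 to 168 CPM in the knockouts and 90.7 to 170 CPM in the controls, nearly all of it Apob at 69.7 to 162 CPM, while Alb lay between 0.127 and 2.19 CPM. Fgb, from the same list, lay between 0.617 and 6.74 CPM in the knockouts and between 0 and 0.445 CPM in the controls. Of the 4 liver genes tested, edgeR called 0. DESeq2's test called 1, Fgb, higher in the knockouts, against 10.6% of all genes in either direction. Adipocyte markers (7 of 7 present) summed to 41.5 to 182 CPM in the knockouts and 58.0 to 145 CPM in the controls. They did not share 1 direction. Fabp4 lay at 24.1 to 116 CPM in the knockouts and 21.0 to 54.8 CPM in the controls, and Plin1 at 0.127 to 1.93 and 1.11 to 4.36 CPM. Of the 7, edgeR called 0. DESeq2's test called 1, Plin1, lower in the knockouts, against 2.98% of all genes. The part of neighbouring tissue in the exocrine reads was not tested.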

How the data were processed

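Colon RNA-seq of 6 knockout and 6 control mice was used; per the labels' protocols, RNA was taken with Trizol and libraries made with the SMARTER mRNA-Seq kit. Per the file headers, the authors deposited a table of raw counts and TPM per gene and library, with their own log2 fold change and p-value per gene. The submitters' processing notes list GRCm38, mm10 and mm39 without roles; which aligner and counter were run, and whether strand was used, is not given in the sources used here, and reads of near-identical copies or overlapping genes may be split. Columns from other series numbered 0.

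Members were matched by symbol; members, role classes and marker lists were chosen with earlier results of these data known. Counts were tested with edgeR 4.0.16 in R 4.3.3 (filterByExpr, minimum count 10; TMM; quasi-likelihood; Benjamini-Hochberg over 14393 genes, threshold 0.05), which tested 27 of 33 members; Try10, Prss1, Prss3, Cela3a, Ptf1a and Rbpjl did not pass the filter. Log2 CPM used a prior count of 2. The procedure was tested on simulated data. Alternatives were DESeq2 1.42.0, limma 3.58.1 (voom, and log2 TPM with pseudocounts 1 and 0.1), other scalings, no filter, the replicate number as a block, and each library left out. Members given in full are the 2 with the largest mean TPM per class; Cela1, Sycn, Pnliprp2, Gp2, Amy2a5 and the likeness of Sycn were chosen after their values were seen, and genes named for likeness are from the 10 of highest rho; a gene outside the members is not reported here. Replicates are mice by the labels. Promoters came from RefSeq (GRCm38.p6), 31 of 35 matched.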

Additional observations from a re-analysis of the deposited data

Results flagged for a closer look

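On unlogged CPM, control 6 lay farther above the other 5 control libraries than Dixon's 95% critical value for 6 samples in the summed members, at 77740 CPM. These sums differed 545-fold among the controls, and the gap was not taken on log levels. The same held for each role class in control 6, whose summed levels in CPM were 39709 for the amylases, 8354 for the lipases and cofactors, 6556 for the trypsins, 14064 for the chymotrypsins and elastases, 6250 for the carboxypeptidases, 2804 for the other acinar genes and 4.2 for the transcription factors.

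Single members flagged in control 6 by the same gap had CPM levels of 6151 for Amy2a1, 8527 for Amy2a2, 7977 for Amy2a5, 3420 for Pnlip, 736 for Clps, 245 for Pnliprp2, 2245 for Prss2, 1390 for Try4, 4224 for Ctrb1, 4757 for Cela2a, 3103 for Cela1, 2344 for Cpa1, 3906 for Cpb1, 914 for Reg1, 1040 for Rnase1, 311 for Sycn, 449 for Gp2 and 1.99 for Ptf1a. In the knockouts the gap was exceeded once, by Ptf1a in knockout 5 at 0.543 CPM, which is 9 counts. Chance flags about 1 in 20 groups where values are normally distributed, which unlogged CPM need not be. The members share their libraries, so these flags are not separate observations.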

How the results depend on the processing

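Over all genes the number called was 8, and it was 52 with DESeq2 size factors, 275 with library size only, 5 with library sizes computed without the members, 1532 with DESeq2's test, 49 with limma voom, 403 on log2(TPM + 1), 413 on log2(TPM + 0.1) and 2 to 1272 leaving out 1 library. Leaving out knockout 4 gave 1272, control 4 gave 1004 and control 6 gave 373. The number of members called was 0, except for 1 (Sycn) with DESeq2's test and without knockout 4; leaving out 1 library gave 0 to 1. The median log2 fold change of the members, -2.45, lay between -2.85 and -0.31 leaving out 1 library, and was -0.97 on log2(TPM + 1), -1.21 on log2(TPM + 0.1) and -1.29 with voom. Pnliprp2 turned to 0.0219 on log2(TPM + 1) and 0.0798 on log2(TPM + 0.1), and leaving out 1 library gave -1.71 to 0.34; for Gp2 this gave -2.36 to 0.0647, each highest without control 6. The cause was not tested.

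With the replicate number as a block, 1 gene was called over all genes, 0 members were called and their median was -0.83, with Pnliprp2 at 0.55 and Gp2 at 0.13. The correlations of same-numbered libraries ran from -0.496 to 0.0776, so the numbers were not taken as pairs. Within the 6 knockouts and the 6 controls the slopes were 0.24 and 0.15 for Sycn, 0.35 and 0.40 for Cela1, and 0.35 and 0.54 for Pnliprp2. By counts in place of TPM the amylase share of the members was 36.7% in the knockouts and 36.1% in the controls, against 19.8% and 19.5% by TPM. Levels below 3 counts were not resolved, which limits Ptf1a, Rbpjl and the enzymes in the 4 poor libraries.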

Other observations

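Sycn was set beside the genes of the whole table after its values were seen. Over the 11 libraries without control 6, Insl5, which encodes a peptide hormone of enteroendocrine L cells of the colon, had the highest Spearman rho with Sycn outside the members, at 0.927, with a mean of at least 1 CPM. Eme2 came close at 0.918, and Tlcd1 and Sval1 at 0.9, so Insl5 did not stand apart. The cell that makes Sycn was not tested. Insl5 had 6.40 CPM in knockout 2, where Sycn was lowest, 24.7 to 35.9 CPM in the other 5 knockouts, 43.1 to 49.3 CPM in controls 1, 2, 3, 4 and 6, and 108 CPM in control 5. Control 5 also had the highest Sycn level outside control 6, at 76.3 CPM. For Cela1 over the same 11 libraries genes of high rho included the acinar genes Serpini2, at 0.963, and Pdia2, at 0.911. These values are a description over libraries that share the genotype difference and their source tissue, without a test.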
